A study of Mus musculus with 18 samples.

Results

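The 10 genes described here are members of the Toll-like receptor pathway: the receptors Tlr2, Tlr3 and Tlr4, the co-receptors Cd14 and Ly96, the adaptors Myd88 and Ticam1, the kinase Irak1, the transcription factor subunit Nfkb1 and its inhibitor Nfkbia. They were chosen by name, through the NCBI gene number of each symbol, and make up 10 of the 22657 genes of the table. RNA-seq values of 18 samples of cultured mouse testis were used, 3 for each of 6 groups, and the unit was FPKM, which divides a gene's reads by its length and by the depth of its sample.

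All samples were whole testes of ICR mice, an outbred strain, kept for 48 h in DMEM/F12 medium with serum. The methods of the study give 6 testes per treatment, repeated 3 times. They do not say whether the 3 samples of a group are those repeats. A0, A10 and A50 came from mice that received no busulfan and were cultured with 0, 10 or 50 μg/mL alginate oligosaccharides (AOS), short sugar chains cut from the alginate of brown algae. B0, BA10 and BA50 came from mice that received busulfan once, at 40 μg per g body weight and 3 weeks of age, and had the same 3 AOS concentrations in the culture medium. Busulfan alkylates DNA and depletes the dividing germ cells of the testis. The testes were taken 2 weeks after the injection, so busulfan was given to the animal and AOS only to the culture. Mice without busulfan were matched in age, according to the methods. The design text of the series gives the AOS doses relative to body weight, but μg/mL is used here, as in the labels and methods. No source used here says that same-numbered samples shared an animal or a culture, so each p-value measures the spread between these samples, which may be technical.

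Toll-like receptors recognize molecules of microbes and of damaged tissue. Tlr4, which needs Ly96 (MD-2) for binding and is served by Cd14, responds to bacterial lipopolysaccharide, Tlr2 to lipoproteins, and Tlr3 to double-stranded RNA. Myd88 and Ticam1 (TRIF) carry the signal inside the cell, Irak1 acts below Myd88, and both branches release NF-κB from Nfkbia (IκBα), which is itself transcribed in response to NF-κB. In the testis, macrophages, Sertoli cells and other somatic cells carry these receptors. Alginate oligosaccharides have been described as ligands of Toll-like receptors, and the comparisons below ask whether the transcripts of the pathway moved with busulfan or with AOS.

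Sequence near the start of 3 members is shown because NF-κB binds a short kappa B motif, and Nfkbia is a standard example of a gene with such sites. Windows of the RefSeq promoter table of build GRCm38.p6 were read for 6 of the 10 members: Tlr2, Tlr3, Myd88, Ticam1, Irak1 and Nfkbia. Each window ran from 250 bases before to 50 bases after the start. No window was read for the other members, so their absence here says nothing about their sequence. The kappa B consensus was searched by name on both strands. The consensus was found in the windows of Tlr2, Tlr3, Irak1 and Nfkbia and not in those of Myd88 and Ticam1. Of the 32851 promoter windows searched, 8.46% held a match. The stretches below, of Tlr2, Irak1 and Nfkbia, run 5′ to 3′ on the strand of the gene, with 25 bases on each side and the matched bases in capitals. Matches on the 2 strands can overlap.
Tlr2, upstream, chr3:83841746-83841806, minus strand: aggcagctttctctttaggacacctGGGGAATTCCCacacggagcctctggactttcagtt
Irak1, chrX:74023905-74023964, minus strand: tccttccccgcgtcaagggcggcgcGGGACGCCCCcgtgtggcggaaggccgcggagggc
Nfkbia, chr12:55492642-55492701, minus strand: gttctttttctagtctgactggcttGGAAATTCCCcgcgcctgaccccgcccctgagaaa

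Counted from the start as position 1, with no position 0, the capitals covered positions -29 to -20 in Nfkbia, -211 to -202 in Tlr3, and -173 to -163 and -8 to 2 in Tlr2. In Irak1 they covered -18 to -9 or -21 to -12, depending on which of its 2 listed starts was used. In the GENCODE M21 annotation, 6 of the 60 bases shown for Nfkbia and 14 of the 60 shown for Irak1 lie in an exon of the gene. Of the 61 bases shown for Tlr2, 22 do. The Tlr3 match and the Tlr2 match at the start lie wholly in exons and are given by position alone. These are matches of letters in a window and no measurement of binding.

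The markers of testicular cells were present in every library. Summed FPKM of 10 Sertoli cell markers ran from 1102.89 to 5359.41 and that of 14 macrophage markers from 423.4 to 1054.41. Of 8 neutrophil markers, the defining Ly6g, Mpo, Elane and Ngp did not exceed 0.12 FPKM in any library, S100a9 and Csf3r stayed below 1 FPKM, and S100a8 and Camp were detected, and 8 lymphocyte markers summed to between 0.55 and 2 FPKM. A10 replicate 3 stood apart, with correlations of 0.962 and 0.968 to the other A10 libraries over all genes. It was the lowest of all 18 libraries in 27.9% of the 15790 genes tested and the highest in 16%. BA50 replicate 2 (lowest in 15.1%, highest in 10%) and B0 replicate 3 (14.8% and 10.8%) followed. All 3 B0 libraries carried markers of fat cells (7 genes, summed FPKM 195.82 to 805.21, at most 137.63 elsewhere) and of simple epithelium (6 genes, 81.41 to 215.69, at most 48.92 elsewhere). In whole tissue, fewer cells of a type and less RNA per cell cannot be told apart.

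All 10 members were detected, and all passed the filter of at least 1 FPKM in at least 3 samples. Nfkbia and Cd14 were the most abundant per transcript length, with 103.5 ± 25.1 and 53.96 ± 13.1 FPKM (SD, n = 18). Irak1 followed with 19.2 ± 3.76, Nfkb1 with 15.4 ± 2.69 and Myd88 with 15.14 ± 2.16 FPKM, and these 3 neighbours overlapped within their spread. Ly96 stood at 9.052 ± 2.45 and Ticam1 at 6.975 ± 1.05 FPKM, also overlapping. The 3 receptors were the lowest, with Tlr4 at 3.397 ± 1.03, Tlr3 at 2.903 ± 0.842 and Tlr2 at 2.244 ± 0.686 FPKM, and did not separate from each other. The co-receptor Cd14 was thus far more abundant than the receptor it serves in every library, its lowest value being 28.9 FPKM and the highest of Tlr4 being 5.01 FPKM.

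**Figure D1:**
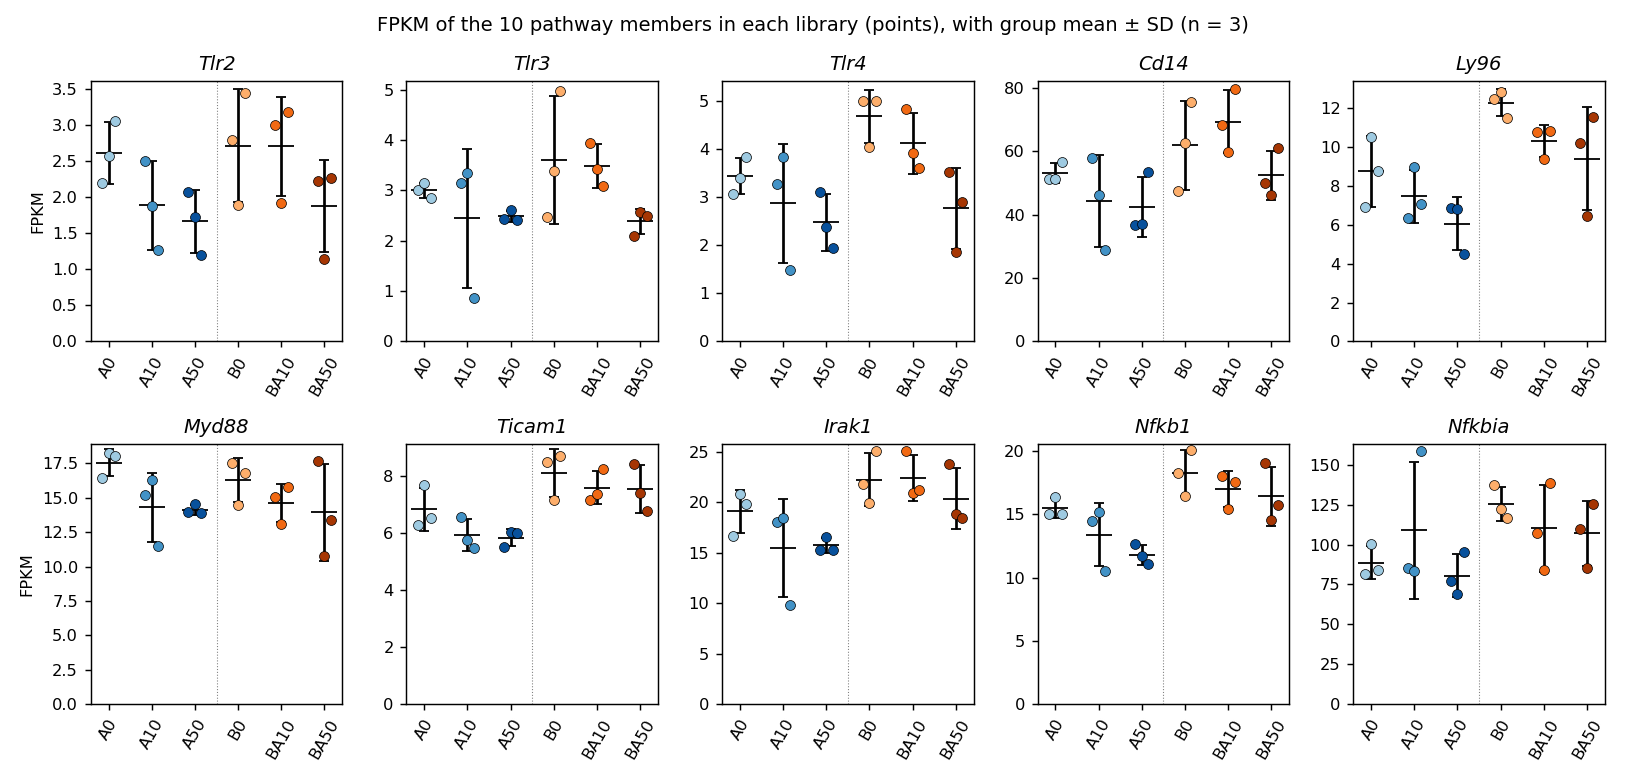
FPKM of each member (vertical axes, each starting at 0) in the 3 libraries of each group (points), with group mean and SD as bar and whiskers. The blue groups had no busulfan and the orange groups had busulfan. Ly96 and Nfkb1 sit higher on the right of each panel, and the A10 library with the lowest Tlr3 (0.86 FPKM) is the one with the highest Nfkbia (158.57 FPKM).

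Tests were run with limma on log2(FPKM + 1) over all 15790 genes that passed the filter, with all 18 samples in 1 fit. Calls followed the limits of the study, a p of at most 0.001 after Benjamini-Hochberg adjustment together with a log2 change of 1 or more in either direction. The study applied these limits to another test (DEGseq) and reported up-regulated and down-regulated genes in each of its AOS comparisons. The counts and shares given here are those of limma alone. No member was called in any of the 12 comparisons. Of all genes tested, 0% were called in the 8 comparisons of AOS, 2.54% in B0 against A0, 3.01% in BA10 against A10, 3.39% in BA50 against A50 and 3.61% with busulfan averaged over the AOS doses. A milder limit, adjusted p under 0.05 with no fold limit, was therefore used to describe the members, and "rose" and "fell" refer to it. Fold changes on the log2(FPKM + 1) scale understate the change of low genes such as the 3 receptors.

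Busulfan was compared with no busulfan over 9 libraries each, averaged over the AOS doses. The 5 members Ly96, Cd14, Ticam1, Irak1 and Nfkb1 rose, 4 did not pass although their mean was higher, and Myd88 was level. The 5 of 10 stand against 13.3% of all genes that rose at the same limit. The median log2 change of the members was 0.31, against 0.01 for all genes tested.

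Ly96, which holds lipopolysaccharide for Tlr4 (chr1:16688051-16709611, plus strand), changed most. It was at 6.94, 10.55 and 8.76 FPKM in A0, at 6.36, 8.99 and 7.08 in A10, and at 6.88, 6.8 and 4.49 in A50. After busulfan it was at 12.49, 12.86 and 11.52 FPKM in B0, at 10.78, 9.38 and 10.82 in BA10, and at 10.22, 6.44 and 11.57 in BA50. All libraries after busulfan except BA50 replicate 2 and BA10 replicate 2 exceeded 10 FPKM, and of the others only A0 replicate 2 did. Its log2 change was 0.48 ± 0.11 (SE), or 1.39-fold, with an adjusted p of 0.00399 in limma. The exact two-sided permutation of the labels within each AOS dose gave p = 0.00125.

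Nfkb1 encodes the p105 precursor of the p50 subunit of NF-κB (chr3:135584655-135691547, minus strand). It was at 15.06, 16.38 and 15.04 FPKM in A0, at 14.47, 15.18 and 10.54 in A10, and at 12.62, 11.73 and 11.06 in A50. With busulfan the values were 18.23, 16.42 and 20.1 FPKM in B0, 18.05, 15.41 and 17.59 in BA10, and 19.04, 14.55 and 15.71 in BA50. Within each AOS dose, every busulfan library was higher than every library without busulfan. The log2 change was 0.33 ± 0.08 with an adjusted p of 0.00277 in limma, and the exact permutation p of 0.00025 is the smallest its 8000 divisions can give.

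Ticam1, the adaptor of Tlr3 and of internalized Tlr4 (chr17:56269319-56276786, minus strand), had 5.48 to 7.68 FPKM without busulfan and 6.79 to 8.7 FPKM with it. Its log2 change was 0.28 ± 0.06 (limma adjusted p = 0.00203, exact permutation p = 0.0005). Irak1, the kinase recruited by Myd88 (chrX:74013914-74023918, minus strand), ran from 9.85 to 20.81 FPKM without busulfan and from 18.46 to 25.03 with it. It changed by 0.37 ± 0.11 on the log2 scale (limma adjusted p = 0.0134, exact permutation p = 0.0005). The ranges of both genes overlapped between the 9 libraries of each kind. Without A10 replicate 3, where Irak1 was lowest, its log2 change was 0.28 with an adjusted p of 0.0061 in limma.

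Cd14, the surface or secreted protein that hands lipopolysaccharide to Tlr4 and Ly96 (chr18:36725067-36726798, minus strand), was at 46.66 ± 10.1 FPKM without and 61.27 ± 11.9 FPKM with busulfan (SD, n = 9). The log2 change was 0.39 ± 0.13 with an adjusted p of 0.0289 in limma. When A0 and B0 were left out the change was larger, 0.49 ± 0.17, and with fewer samples it did not pass (adjusted p = 0.0508).

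Of the members that did not pass, Tlr4 (chr4:66827584-66930284, plus strand) had a log2 difference of 0.30 ± 0.13 and an adjusted p of 0.0777 in limma. It was at 3.08, 3.41 and 3.84 FPKM in A0 and at 5.01, 4.05 and 5 FPKM in B0, with no overlap. In BA50 it was at 3.53, 1.87 and 2.91 FPKM and in A50 at 3.11, 2.39 and 1.94 FPKM, and these groups overlapped. Nfkbia (chr12:55489410-55492647, minus strand) had a difference of 0.32 ± 0.14 and an adjusted p of 0.0799. Without A10 replicate 3 it was 0.42 with an adjusted p of 0.0073. Tlr2 (chr3:83836272-83841767, minus strand) and Tlr3 (chr8:45395665-45411080, minus strand) had differences of 0.16 ± 0.13 and 0.20 ± 0.15 and adjusted p of 0.335 and 0.303. Myd88 (chr9:119335934-119341411, minus strand), the adaptor shared by most Toll-like receptors, was at 15.33 ± 2.15 FPKM without and 14.95 ± 2.29 FPKM with busulfan (n = 9). Its log2 difference of -0.04 ± 0.09 was smaller than its error.

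**Figure D2:**
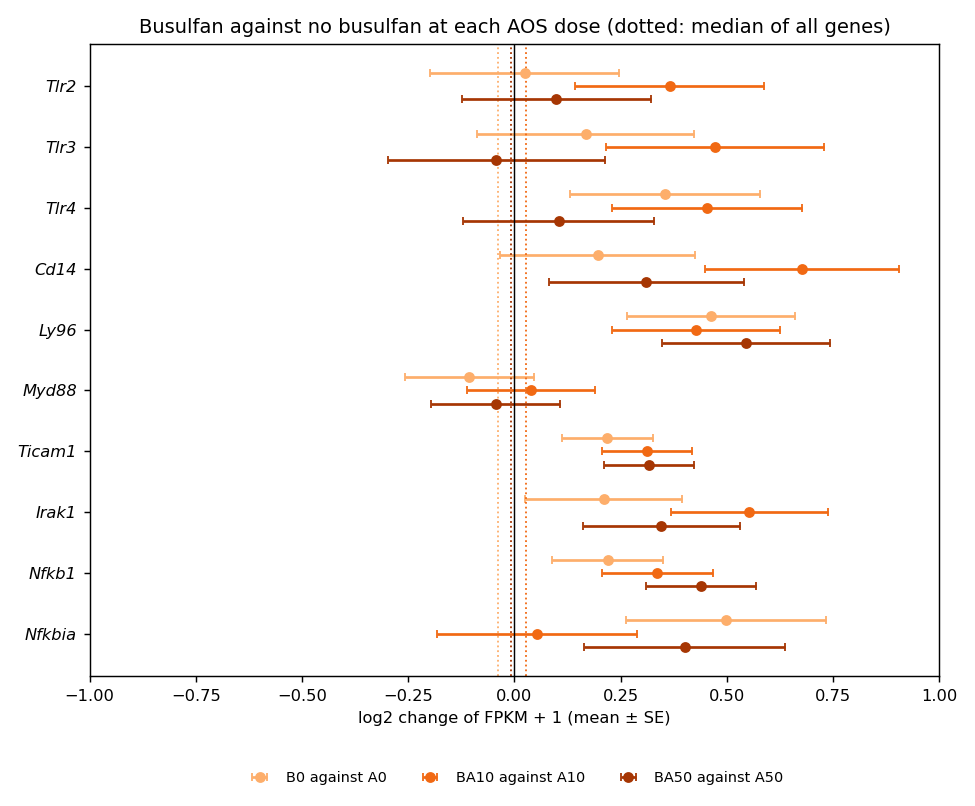
Log2 change of each member with busulfan (horizontal axis, points, with SE as whiskers) at 0, 10 and 50 μg/mL AOS in light, middle and dark orange. Dotted lines mark the median of all genes in each comparison, and most points lie to their right, while those of Myd88 lie within 1 SE of 0 and that of Tlr3 at 50 μg/mL lies just below 0.

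Within single AOS doses, fewer members passed. In B0 against A0 none did, and the 4 members Tlr4, Ly96, Nfkb1 and Nfkbia were higher in every B0 than in every A0 library, against 10.5% of all genes. Their log2 differences were 0.35, 0.46, 0.22 and 0.50, with adjusted p of 0.38, 0.155, 0.34 and 0.208 in limma. In BA10 against A10 only Irak1 passed, at 0.55 ± 0.18 and an adjusted p of 0.0497, 1 of 10 against 3.74% of all genes that rose. It did not pass without A10 replicate 3 (0.28, adjusted p = 0.197). In BA50 against A50 Ticam1 (0.32 ± 0.11, adjusted p = 0.0489) and Nfkb1 (0.44 ± 0.13, adjusted p = 0.0268) rose, 2 of 10 against 3.7% of all genes. With 3 libraries against 3, the exact permutation test cannot go below p = 0.1.

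Markers of several cell types moved with busulfan. Of 9 spermatogonium markers tested 6 fell (median log2 change -0.58). Of 10 spermatocyte markers 9 fell, with a median log2 change of -2.59, and their summed FPKM was 620.98 to 1088.42 without and 189.35 to 487.42 with busulfan. Of 10 spermatid markers none fell and Tssk6 rose (median 0.39). FPKM is relative to the library, so a larger share of somatic RNA and more transcript per somatic cell cannot be told apart. Of 6 endothelial markers 3 rose (median 0.29), of 9 Sertoli cell markers tested 2 rose (median 0.31), of 6 fat cell markers tested all 6 rose (median 1.09), and of 14 macrophage markers none passed (median 0.03). Fat cell markers differed by 1.49 to 4.83 in B0 against A0. They differed by 0.20 to 1.52 in BA10 against A10 and by 0.10 to 0.85 in BA50 against A50. In the same order, endothelial markers differed by 0.05 to 0.77, 0.08 to 0.41 and -0.08 to 0.56. The Sertoli cell markers that rose were Gata4 (0.02, 0.47 and 0.45) and Inha (0.0006, 1.09 and 0.34). Of 5 Leydig cell markers tested Star rose (0.75 ± 0.12, adjusted p = 0.000205, list median 0.37). Both neutrophil markers tested rose, S100a8 by 0.65 ± 0.23 and Camp by 1.32 ± 0.37 (adjusted p = 0.0358 and 0.012), and the summed FPKM of all 8 was 7.95 to 19.4 without and 17.17 to 109.21 with busulfan. The part of these markers in the rise of the members was not tested. When A0 and B0, the latter with the fat cell and epithelial markers, were both left out, 4 of the 10 members rose, Ly96, Ticam1, Irak1 and Nfkb1, against 8.4% of all genes. When A10 replicate 3, B0 replicate 3 and BA50 replicate 2 were left out, 6 rose, against 15.1% of all genes. Tlr4 and Nfkbia then passed (adjusted p = 0.042 and 0.00411) and Cd14 did not (adjusted p = 0.0562). These fits, without A0 and B0 and without those libraries, were added after the data were seen.

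AOS was compared with no AOS within each busulfan state and over both. At 50 μg/mL all 10 members had a lower mean than at 0, without busulfan and with it, and none passed the adjusted limit. Over both states (6 libraries against 6) the log2 changes lay between -0.49 and -0.14, with a median of -0.27 against -0.06 for all genes tested. The 5 members Tlr2, Tlr4, Ly96, Myd88 and Nfkb1 had an unadjusted p under 0.05 in limma, where 17% of all genes were lower at that limit. At an adjusted p under 0.05, 0 of 10 were lower, against 2.16% of all genes.

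Tlr4 had the largest difference, -0.49 ± 0.16 on the log2 scale (limma adjusted p = 0.0639, exact permutation within busulfan states p = 0.01). It was at 1.94 to 3.11 FPKM in A50 against 3.08 to 3.84 in A0, and at 1.87 to 3.53 FPKM in BA50 against 4.05 to 5.01 in B0. The BA50 and B0 libraries did not overlap, and A50 overlapped A0 by 1 library. Ly96 differed by -0.43 ± 0.14 (adjusted p = 0.0646, exact permutation p = 0.01), Tlr2 by -0.41 ± 0.16 (adjusted p = 0.0965, exact p = 0.025), Myd88 by -0.26 ± 0.11 (adjusted p = 0.109, exact p = 0.035) and Nfkb1 by -0.26 ± 0.09 (adjusted p = 0.0808, exact p = 0.015). The smallest p of this exact test is 0.005. Tlr2 was at 2.2, 2.58 and 3.06 FPKM in A0 and at 2.07, 1.73 and 1.2 in A50. It was at 2.8, 1.89 and 3.45 FPKM in B0 and at 2.22, 1.15 and 2.27 in BA50, so its groups separated only without busulfan. The other 5 members differed by -0.14 to -0.31 and had adjusted p of 0.187 or more. Among them Tlr3 (-0.31 ± 0.18, adjusted p = 0.232) had an exact permutation p of 0.015, and the other 4 had exact p of 0.055 or more.

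Without busulfan, 7 of the 10 members were lower in every A50 than in every A0 library: Tlr2, Tlr3, Ly96, Myd88, Ticam1, Irak1 and Nfkb1. Of all genes 23.2% were. The lowest adjusted p was 0.248, for Nfkb1 (-0.37 ± 0.13). With busulfan, only Tlr4 was lower in every BA50 than in every B0 library (-0.61 ± 0.22, adjusted p = 0.137), against 13.5% of all genes. These comparisons share no control. The change by 50 μg/mL AOS with busulfan minus that without it lay between -0.25 and 0.22 for the members, and the lowest unadjusted p was 0.253.

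**Figure D3:**
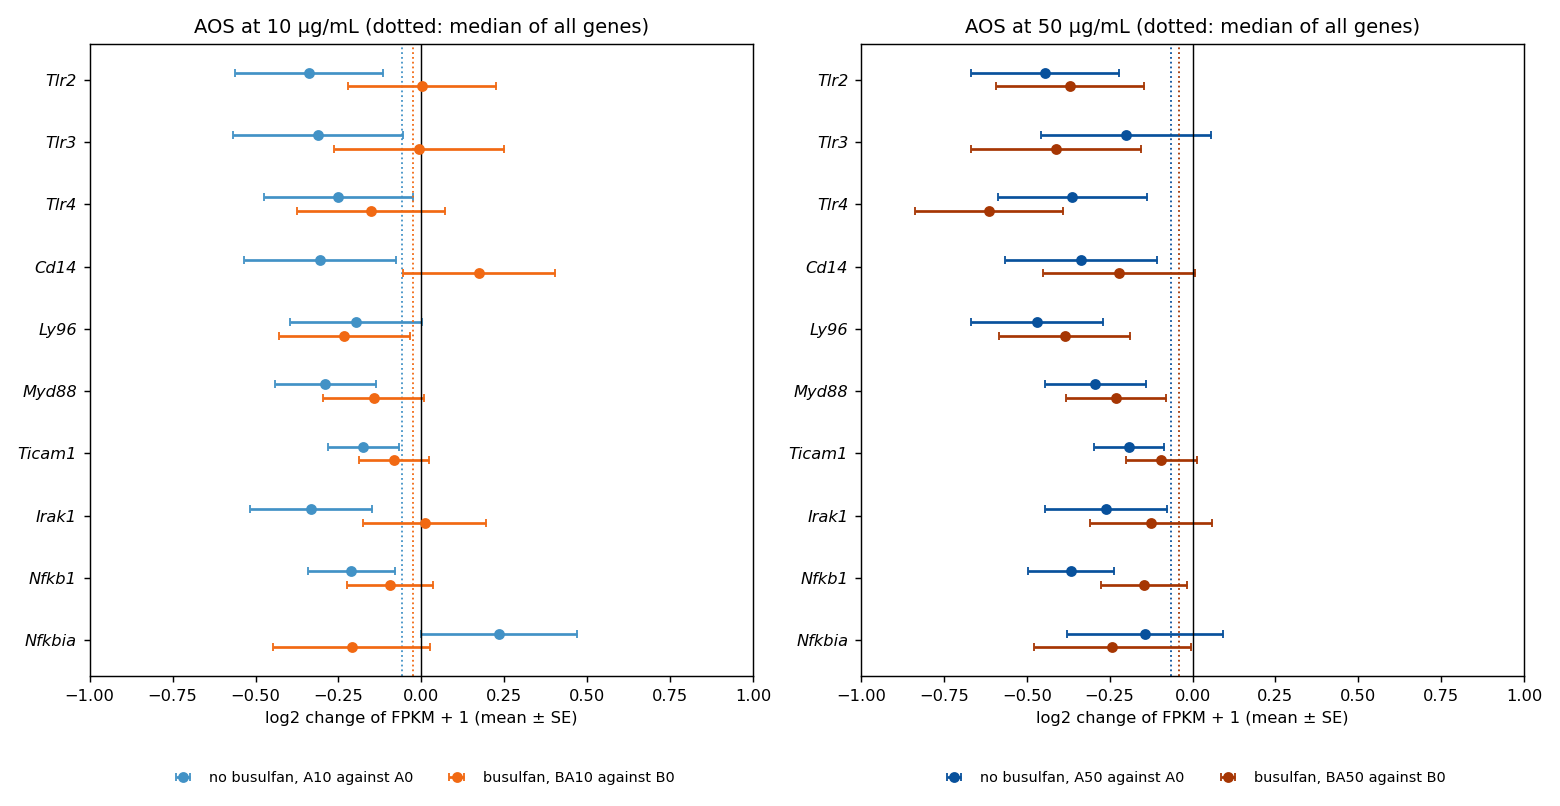
Log2 change of each member with AOS (horizontal axes, points, with SE as whiskers), at 10 μg/mL on the left and 50 μg/mL on the right, without busulfan in blue and with it in orange. At 50 μg/mL all 20 points lie below 0, from -0.61 for Tlr4 with busulfan to -0.09 for Ticam1 with busulfan. At 10 μg/mL 9 of 10 points lie below 0 without busulfan and 7 of 10 with it.

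Markers of macrophages and of endothelium also had lower medians at 50 μg/mL. Of 14 macrophage markers 3 had a lower value at an unadjusted p under 0.05 and none at the adjusted limit, and their median log2 change was -0.53. Their summed FPKM was 722.1 to 941.83 in A0 and 598.25 to 650.95 in A50, and 633.16 to 1054.41 in B0 and 465.56 to 840.72 in BA50. Of 6 endothelial markers 2 fell, with a median of -0.55, and all 6 were lower at an unadjusted p under 0.05. At the adjusted limit 900 of all 15790 genes tested rose and 341 fell. Of 10 spermatocyte markers 4 rose and none fell, with a median of 0.42. Of 10 spermatid markers Acr rose (0.70 ± 0.20, adjusted p = 0.0485) and all 10 were higher, with a median of 0.58. Their summed FPKM was 2350.43 to 3443.3 in B0 and 5091.12 to 11010.38 in BA50, with no overlap, and 2485.4 to 4368.26 in A0 and 3268.92 to 4176.39 in A50. The part of these markers in the lower values of the members was not tested. The fat cell and epithelial markers of B0 also fell (4 of 6 tested in each list), which lies in the control group of this comparison. Without A10 replicate 3, B0 replicate 3 and BA50 replicate 2, the difference was -0.38 for Tlr4 (adjusted p = 0.0985), -0.34 for Ly96 (0.165), -0.18 for Nfkb1 (0.156), -0.24 for Tlr2 (0.3) and -0.17 for Myd88 (0.238), the last pair over 1.5 times smaller than with all libraries.

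At 10 μg/mL no member passed, and none had an unadjusted p under 0.05 in limma in the pooled comparison or in either busulfan state. The exact permutation test within busulfan states gave p = 0.03 for Myd88 and 0.07 or more for the other 9 members. In A10 against A0 only Myd88 did not overlap, being lower in every A10 library, against 12.2% of all genes. It was at 16.45, 18.22 and 18 FPKM in A0 and at 15.17, 16.28 and 11.5 in A10. In BA10 against B0 only Ly96 was lower in every library, against 7.75% of all genes. The difference between the changes with and without busulfan had its lowest unadjusted p at 0.159.

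The A10 comparison rested in part on A10 replicate 3. In that library 6 of the 10 members (Tlr3, Tlr4, Cd14, Ticam1, Irak1 and Nfkb1) had the lowest value of all 18 libraries, and Nfkbia the highest. Of all genes tested 27.9% were lowest and 16% highest there. Tlr3 was at 0.86 FPKM there and at 2.1 FPKM or more elsewhere, Irak1 at 9.85 against 15.25 or more, and Nfkbia at 158.57 against 138.87 or less. With it, the log2 differences of A10 from A0 were -0.31 for Tlr3, -0.25 for Tlr4 and 0.23 for Nfkbia. Without it they were 0.08, 0.04 and -0.07, with the opposite sign in each case.

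Members were also compared with each other and with the 14 macrophage markers, averaged as log2(FPKM + 1), over the 18 samples in 15 relations. Tlr4 went with Ly96 (r = 0.746, permutation p = 0.0003, adjusted 0.00112, rho = 0.699, permutation p = 0.00168, adjusted 0.0084) and with Tlr2 (r = 0.827, permutation p = 2e-05, adjusted 0.00015, rho = 0.641, permutation p = 0.00489, adjusted 0.0183). Without the 2 samples farthest from the median, of Tlr4 in the pair with Ly96 and of Tlr2 in the other, r was 0.774 and 0.738. On deviations from the group means r was 0.531 and 0.74 (permutation within groups, adjusted p = 0.207 and 0.0435). Among the libraries without busulfan r was 0.605 and 0.857, and among those with it 0.77 and 0.789. Tlr4 and Cd14 were looser (r = 0.633, permutation p = 0.00501, adjusted 0.0125, rho = 0.538, permutation p = 0.0229, adjusted 0.0429), and r fell to 0.438 without A10 replicate 3 and BA50 replicate 2.

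Nfkb1 and its inhibitor Nfkbia had r = 0.294 over all samples (permutation p = 0.235, adjusted 0.252, rho = 0.463, permutation p = 0.0544, adjusted 0.0832). Without A10 replicate 3 and A50 replicate 3 it was 0.801, and on deviations from the group means it was -0.305. Myd88 and Ticam1, the 2 adaptors, had r = 0.392 (permutation p = 0.108, adjusted 0.125, rho = 0.406, permutation p = 0.0953, adjusted 0.11). Of the members, Tlr2 followed the macrophage markers most closely (r = 0.85, permutation p = 1e-05, the smallest the resamples can give, adjusted 0.00015, rho = 0.886, permutation p = 2e-05, adjusted 0.0003), and r was 0.754 without BA50 replicate 2 and A10 replicate 3. Myd88 came next (r = 0.814, permutation p = 6e-05, adjusted 0.0003, rho = 0.777, permutation p = 0.00019, adjusted 0.00142), at 0.61 without those libraries. On deviations from the group means r was 0.858 for Tlr2 and 0.755 for Myd88 (permutation within groups, adjusted p = 0.00825 and 0.171). For Tlr4 r was 0.664 (permutation p = 0.00268, adjusted 0.00804, rho = 0.577, permutation p = 0.0139, adjusted 0.0416) and fell to 0.383 without BA50 replicate 2 and A10 replicate 3. For Tlr4 on deviations from the group means r was 0.625 (permutation within groups, adjusted p = 0.171). Among the libraries without busulfan it was 0.6, and among those with it 0.806. Nfkb1 followed less closely (r = 0.543, permutation p = 0.0199, adjusted 0.0427, rho = 0.546, permutation p = 0.0218, adjusted 0.0429). For the other 6 members the adjusted p of r was above 0.05, and r was lowest for Nfkbia (r = 0.132, permutation p = 0.601, adjusted 0.601, rho = 0.143, permutation p = 0.57, adjusted 0.57). Within busulfan states the r of Nfkbia differed in sign, at -0.468 without and 0.792 with busulfan (9 libraries each), and it was 0.397 without BA50 replicate 2 and A10 replicate 3.

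**Figure D4:**
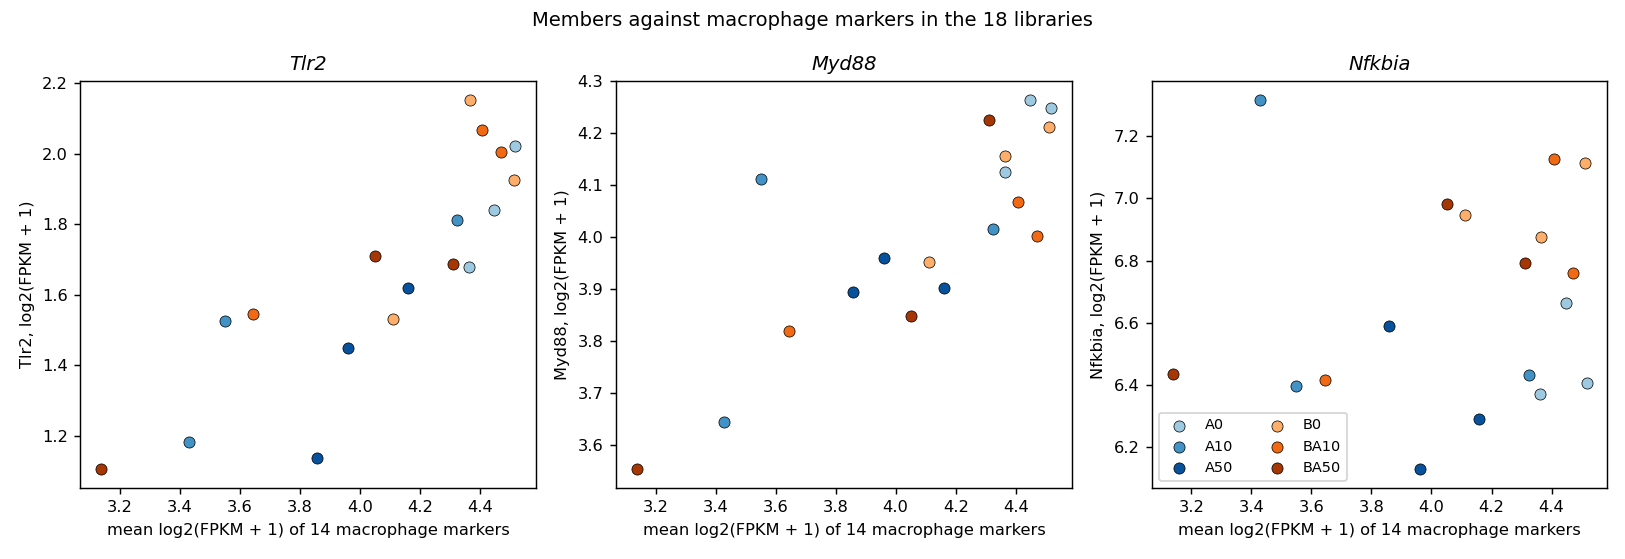
Each point is a library, colored by group, with the mean log2(FPKM + 1) of 14 macrophage markers on the horizontal axis and the log2(FPKM + 1) of Tlr2, Myd88 or Nfkbia on the vertical axis. Tlr2 and Myd88 climb with the markers (r = 0.85 and 0.814), while Nfkbia has r = 0.132 over all libraries, 0.792 over the orange and -0.468 over the blue ones.

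The tested genes most like each member over the 18 samples, by Pearson r of log2(FPKM + 1), were not members of the list. They were Ctsc and Maob for Tlr2 (r = 0.939 and 0.935), Stk3, Fundc1 and Ccdc71l for Tlr4 (0.951 to 0.948) and Vps41, Pts and Reps2 for Tlr3 (0.942 to 0.941). For Ly96 they were Angptl2, Clip2 and Msn (0.934 to 0.91), and for Cd14 Aldh1b1, Atl2 and Pgbd5 (0.934 to 0.923). Zmpste24, Ripk1 and Cisd2 were nearest to Irak1 (0.99 to 0.978), Poglut3, Aldh18a1 and Ncl to Myd88 (0.94 to 0.927), and Ndel1, Slc11a2 and Nfil3 to Ticam1 (0.945 to 0.938). Plpp3, Acvr1 and Rab7 were nearest to Nfkb1 (0.97 to 0.957). Junb, Hcar2 and Gdf15 were nearest to Nfkbia (0.944 to 0.916), Hcar2 being low with a mean of 0.63 FPKM. Among the members themselves, the closest pair was Irak1 and Nfkb1 (r = 0.904) and the most distant Tlr3 and Nfkbia (r = -0.289). A10 replicate 3 had the lowest Tlr3, Irak1 and Nfkb1 and the highest Nfkbia of the 18 samples. The r of this paragraph were not computed without it.

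Another 69 genes of the pathway were followed in 6 lists. None was called under the limits of the study in any comparison. With busulfan, at an adjusted p under 0.05, 13.3% of all genes rose and 24.8% fell, and the counts of the lists stand against these shares. Of 16 adaptors, kinases and ubiquitin ligases tested (18 listed) 5 rose and none fell. Irak2, a kinase related to Irak1, had the smallest p of that list, with a log2 change of 0.39 ± 0.07 (limma adjusted p = 0.000612). It was at 4.41 to 5.61 FPKM in all libraries without busulfan and at 5.89 to 8.53 FPKM in all libraries with it, with no overlap. Of 9 transcription factors 2 rose (Relb, 0.25 ± 0.08, adjusted p = 0.0215, and Nfkb2, 0.29 ± 0.10, adjusted p = 0.0261) and Rel fell (-0.24 ± 0.09, adjusted p = 0.0404). Of 9 other receptors and co-receptors tested (13 listed) 2 rose, Cd36 (0.49 ± 0.11, adjusted p = 0.00362) and Tlr13 (0.39 ± 0.15, adjusted p = 0.0495). Cd36 is also abundant in fat cells. Tlr9, Tlr11 and Tlr12 did not exceed 0.13 FPKM in any library.

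Of 10 inhibitors 2 fell and 1 rose, against 24.8% and 13.3% of all genes. Tollip, which dampens Irak1, was at 51.43 to 68.83 FPKM without and 36.63 to 44.07 FPKM with busulfan, with no overlap, and its log2 change was -0.60 ± 0.05 (limma adjusted p = 1.16e-07). Irak3 (IRAK-M), a kinase relative that blocks the receptor complex, was at 17.95 to 32.14 FPKM without and 11.8 to 15.23 FPKM with busulfan, again with no overlap, and fell by 0.80 on the log2 scale (SE 0.07, adjusted p = 5.25e-07). Bcl3 rose (0.45 ± 0.11, adjusted p = 0.0034), and the other 7 of the 10 inhibitors did not pass. Irak3 was also higher in every A50 library (27.02, 29.43 and 27.08 FPKM) than in every A0 library (20.29, 17.95 and 20.89), with a log2 difference of 0.48 ± 0.13 and an adjusted p of 0.208. In BA50 against B0 its difference was 0.03 ± 0.13, and the test of the difference between both had an adjusted p of 0.73. Spermatocyte markers were likewise higher in A50 than A0 (summed FPKM 943.23 to 1005.43 against 620.98 to 788.71) and lower after busulfan. The part of germ cells in their levels was not tested. Hsp90b1, a chaperone of Toll-like receptors, fell among the 3 genes of receptor folding and transport (-0.35 ± 0.12, adjusted p = 0.0338), and its highest value, 702.72 FPKM, was in A10 replicate 3.

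Of 12 target genes tested (16 listed), 4 rose with busulfan and none fell, against 13.3% and 24.8% of all genes. The chemokine Cxcl1 had 96.48 to 240.93 FPKM without and 163.85 to 278.72 FPKM with busulfan, a log2 change of 0.76 ± 0.14 (adjusted p = 0.000395). The cytokine Il6 rose by 0.76 ± 0.17 (adjusted p = 0.00242), the chemokine Ccl2 by 0.67 ± 0.15 (adjusted p = 0.0028) and the mitochondrial dismutase Sod2 by 0.29 ± 0.08 (adjusted p = 0.00823). In B0 against A0 alone, Il6 and Cxcl1 rose by 0.99 ± 0.29 and 0.75 ± 0.23 (adjusted p = 0.0345 and 0.0454). Tnf reached 1 FPKM in only 1 library, and Il1b in none.

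With 50 μg/mL AOS over both busulfan states, 1 gene fell among the other receptors (13 listed) and 1 among the targets (16 listed). Of all genes tested 2.16% fell. Cd36 fell by 0.50 on the log2 scale (SE 0.14, adjusted p = 0.047). The control libraries include B0, whose fat cell markers also fell, and the part of fat cells in the fall of Cd36 was not tested. The chemokine Cxcl2 fell by 0.90 (SE 0.25, adjusted p = 0.0469). It was at 14.27, 15.38 and 11.95 FPKM in A0 and at 7.93, 5.16 and 8.73 in A50, and at 15.48, 14.91 and 28.2 FPKM in B0 and at 11.83, 6.15 and 11.11 in BA50, so neither pair of groups overlapped. The target list had a median log2 change of -0.47, and the smallest p of the other lists belonged to Peli1 (-0.23 ± 0.08, adjusted p = 0.0747), Irf5 (-0.35 ± 0.14, adjusted p = 0.0982), Tollip (0.19 ± 0.06, adjusted p = 0.0599) and Unc93b1 (-0.38 ± 0.15, adjusted p = 0.104). None of those 4 passed.

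**Figure D5:**
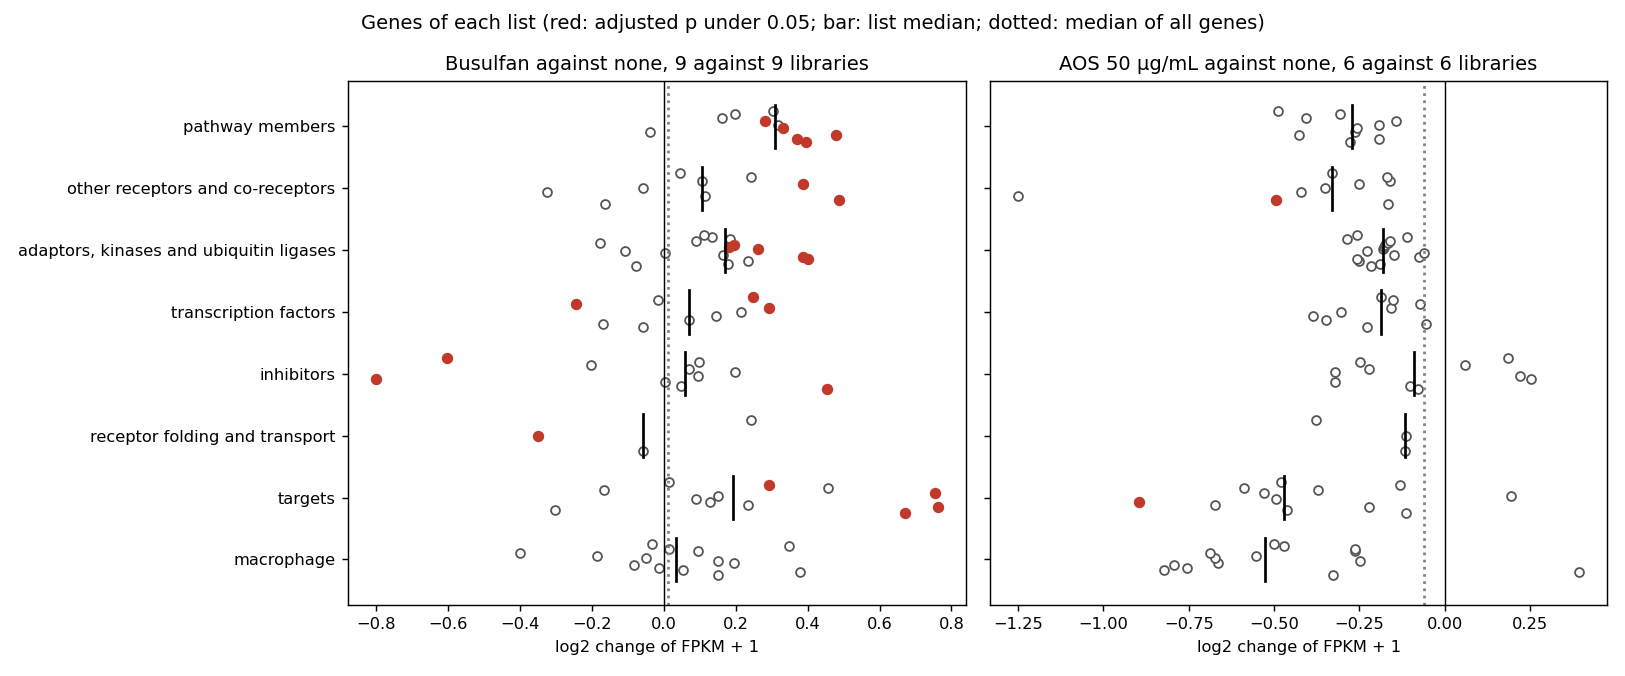
Log2 change of each tested gene (points, red where the adjusted p was under 0.05) for the 10 members, the 6 wider lists and the macrophage markers, with busulfan on the left and with 50 μg/mL AOS on the right. Black bars are list medians and the dotted line is the median of all genes. On the left 5 member points are red, and 2 red points of the inhibitors lie far to the left, at -0.80 and -0.60. On the right the members and the macrophage markers both lie left of 0, with medians of -0.27 and -0.53.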

How the data were processed

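RNA-seq values of 18 cultured testis samples were analyzed, 3 per group, with groups and replicate numbers taken from the labels. The authors deposited 1 table of FPKM values per gene and sample, with 2 decimals. The submitters' processing notes name HISAT, Bowtie2, RSEM and build GRCm38.p5, while the supplementary methods name SOAPaligner and RPKM, and the conflict could not be settled. Column sums were 463970 to 511274 FPKM and 14291 to 15040 genes per sample had at least 1 FPKM. Reads per sample are unknown, so no counting interval was given and precision was judged from replicates. Gene numbers were matched to symbols through RefSeq GRCm38.p6.

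The 15790 genes that reached 1 FPKM in 3 or more samples were tested on log2(FPKM + 1) with limma 3.58.1 (eBayes with trend) in R 4.3.3, as 1 fit of 6 group means, with Benjamini-Hochberg adjustment over all genes tested. The fit had 12 residual degrees of freedom. Exact two-sided permutation tests used 20 divisions for 3 against 3, 8000 for busulfan within AOS doses and 400 for AOS within busulfan states. They are given unadjusted, because an adjustment over the members alone was not made. Correlations used 100000 resamples. The fit was tested on simulated data. Figures were made with Python 3.11.15 and matplotlib 3.10.9.

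The members and lists were chosen with earlier results of these data known. Named were all members, of each wider list any called gene or otherwise the gene with the smallest p in a comparison, and the 3 genes most like each member, of which 1 is not reported here. Other genes of the lists that passed an adjusted p under 0.05 were chosen after their values were seen. Replicate numbers are shared by all groups, and same-numbered samples of BA50 and B0 deviated together (r = 0.562, 0.422 and 0.138), which was not so in every pair of the other comparisons, so a replicate block was tried throughout. Other alternatives were the samples fitted, pseudocount, filters, scaling, eBayes options, threshold and each replicate left out. The fits without A0 and B0, and those without A10 replicate 3, B0 replicate 3 and BA50 replicate 2 together, were added after the data were seen.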

Additional observations from a re-analysis of the deposited data

How the results depend on the processing

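No member was called under the limits of the study in any of the 12 comparisons with any alternative that kept those limits, the replicate block included (0 of 10). Without the fold limit, at an adjusted p under 0.05, 5 members rose with busulfan over the AOS doses, 1 in BA10 against A10 and 2 in BA50 against A50. The 5 became 4 to 7 when a replicate was left out (lowest without A50 replicate 1 or 2, B0 replicate 3, BA10 replicate 3 or BA50 replicate 3, highest without BA50 replicate 2), 6 with the replicate block and 4 when each sample was scaled to a sum of 1000000. The 1 member of BA10 against A10 was 0 to 3 when a replicate was left out, 0 with the replicate block, a pseudocount of 0.1, no filter, scaling to a sum of 1000000, eBayes without trend, robust eBayes or only the groups compared, 2 of 7 with a mean of at least 5 FPKM and 3 with quantile normalization. The 2 of BA50 against A50 were 0 to 2 when a replicate was left out, 1 with the replicate block, no filter or only the groups compared, and 0 with scaling to a sum of 1000000. The 0 members with 50 μg/mL AOS over both busulfan states became 2 with only the groups compared (Tlr4 and Nfkb1) and 4 without BA50 replicate 1, and stayed at 0 without the other replicates. For BA50 against B0, whose same-numbered samples deviated together, a block in a fit of those 2 groups, added after seeing the data, also gave 0. The cause of these changes was not tested.

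For 50 member log2 changes, the alternatives gave 945 values in all, of which 891 kept their direction and their side of an adjusted p of 0.05, 32 lost and 16 gained a pass, and 6 changed sign. Most of the 50 had not passed in the main fit, so most of the 891 are changes that again did not pass. The 32 lost passes come only from the changes that had passed. The difference of Myd88 with busulfan was 0.02 with quantile normalization and -0.10 to 0.02 when a replicate was left out (highest without BA50 replicate 2), that of Tlr3 was -0.01 without A10 replicate 3, B0 replicate 3 and BA50 replicate 2, and those of Tlr3, Tlr4 and Nfkbia in A10 against A0 ran from -0.53 to 0.08, from -0.44 to 0.04 and from -0.07 to 0.39 when a replicate was left out, changing sign without A10 replicate 3. None of these had passed. Of the 15 relations, the number with an adjusted p under 0.05 fell from 7 to 2 on deviations from group means. Reads per sample are unknown, so the lowest members, Tlr2, Tlr3 and Tlr4, are the least precise, and 3 libraries per group cannot reach an exact p under 0.1.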

Other observations

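Ptgs2, the inducible cyclooxygenase, was chosen after its values were seen. It was at 28.11, 30.78 and 33.56 FPKM in A0, at 38.59, 77.22 and 117.65 in A10, and at 38.58, 24.15 and 20.72 in A50. In B0 it was at 53.81, 94.26 and 68.64 FPKM and in BA50 at 30.44, 28.24 and 49.88. In BA10 it was at 46.51, 43.95 and 120.46 FPKM, its highest library being the one with the highest Nfkbia of that group (138.87 FPKM). Fos, a subunit of the AP-1 transcription factor, was highest in A10 replicate 3 (19.93 FPKM) and next in BA10 replicate 3 (15.77 FPKM), as Nfkbia was.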
